A study of Drosophila melanogaster with 8 samples.

Results

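Accessible chromatin of male and female fru+ neurons was compared through the regions called in only one of their pooled ATAC-seq peak lists. Peaks of the male fru+ and the female fru+ list that overlapped by 1 bp or more were merged into 13246 regions on the main chromosomes, and the members were defined by the peak calls themselves: 4233 regions (32.0%, 95% Wilson interval 31.2 to 32.8) held peaks of a single list. Of these members, 1997 were male-only and 1311 female-only on the autosomes, and 161 were male-only and 764 female-only on the X chromosome. The other 9013 regions, 7521 autosomal and 1492 on X, held peaks of both lists and are called shared.

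ATAC-seq cuts open chromatin with the Tn5 transposase and sequences the released fragments, so a peak marks a stretch where the enzyme had access. The study sorted neurons of the adult central brain, optic lobes removed, by the presence (fru+) or absence (fru-) of a GFP reporter driven from the sex-specific fruitless promoter, in each sex. The 8 libraries made 4 groups of 2 replicates, and each group had 1 peak list titled as pooled. All 4 groups came from w1118 flies 2 to 7 days old that carried UAS-mCD8-GFP over MB247-Gal80 and Fru-GAL4 over a TM2 or TM6B balancer. Gal80 under MB247 silences the reporter in mushroom body Kenyon cells, so fru+ Kenyon cells fall into the unlabelled pool, and the GFP- pool was collected at a matched cell number from the same brains. With a single pooled list per group, no replicate spread could be measured, and no test between the sexes was possible. The titles and file names of the libraries disagreed with 1 of their labels, in that female fru+ libraries were described as male fru- and the reverse. Groups were taken from titles and file names, and the share of peaks on X in each list followed the sex in the title. The peak names of each list carried a single replicate number although the lists were titled as pooled, so whether both libraries entered each list rests on the titles and the methods. That number was 1 in both male lists and 2 in both female lists, so it went with sex. If each list held 1 library only, sex and replicate could not be told apart in any comparison here. All intervals are 95% Wilson intervals that cover counting error only.

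The fruitless gene encodes BTB zinc finger transcription factors, and its P1 transcripts are spliced differently in the sexes so that full-length FruM protein is made in males only. FruM is known for shaping the neurons of courtship behaviour, and fru+ neurons of females transcribe the same promoter without making the protein. Male flies carry a single X, and the MSL complex with the noncoding RNAs roX1 and roX2 raises its transcription. The complex enters the X at sites rich in GA repeats and spreads over active genes, with most binding towards their 3′ ends.

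Sequences of members that carry the main contrasts are printed first, because some of the strong male-only X regions held GA repeats near their summits. A GA match was found in 9 of the 24 male-only X regions of the upper strength range described further on, so most had none. CG3638 and roX2 are shown as male-only X regions without one beside female-only X and autosomal regions. The 200 bp summit windows of dnc and Sox21a, both female-only, held 2 matches each, which lie outside the 100 bases printed. Each line is the forward strand of RefSeq release 6 (dm6), centred on the peak summit and 100 bases long, or 30 bases long where the window touched an untranslated region, and then centred on the GA repeat nearest to the summit if the region held one. Capitals mark every match to GAGAGAGA or its reverse complement TCTCTCTC.
CG2186, male-only, chrX:10865760-10865789, 3′ UTR: ctaTCTCTCTCTCTCTCTCTCTCgctgaca
CG3568, male-only, chrX:4545153-4545182, 3′ UTR: ctctcgctcttTCTCTCTCTCTCTCTCtat
CG3638, male-only, chrX:1218666-1218695, 3′ UTR: cgttttcgcacgcaagtgaaagggagagga
pod1, male-only, chrX:6812208-6812237, 3′ UTR: tgcgagtgagtGAGAGAGAtagagtgtgtg
Atg5, male-only, chrX:7321001-7321100, intron: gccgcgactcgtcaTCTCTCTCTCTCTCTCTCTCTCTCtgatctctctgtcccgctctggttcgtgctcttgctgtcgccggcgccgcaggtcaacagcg
lncRNA:roX2, male-only, chrX:11578997-11579096, promoter: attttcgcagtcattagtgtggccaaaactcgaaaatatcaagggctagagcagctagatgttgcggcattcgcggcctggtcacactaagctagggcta
Lim1, female-only, chrX:8813609-8813708, intergenic: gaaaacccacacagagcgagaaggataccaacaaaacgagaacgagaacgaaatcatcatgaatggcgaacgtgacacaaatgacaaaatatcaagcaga
dnc, female-only, chrX:3332672-3332771, exon: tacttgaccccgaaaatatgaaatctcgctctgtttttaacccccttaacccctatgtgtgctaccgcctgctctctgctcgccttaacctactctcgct
CadN, male-only, chr2L:17784792-17784891, intergenic: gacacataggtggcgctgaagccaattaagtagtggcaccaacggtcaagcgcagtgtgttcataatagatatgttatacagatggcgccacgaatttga
fru, male-only, chr3R:18520240-18520339, intron: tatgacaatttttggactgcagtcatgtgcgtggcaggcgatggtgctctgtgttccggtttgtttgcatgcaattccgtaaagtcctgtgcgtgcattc
Sox21a, female-only, chr3L:14108233-14108332, intergenic: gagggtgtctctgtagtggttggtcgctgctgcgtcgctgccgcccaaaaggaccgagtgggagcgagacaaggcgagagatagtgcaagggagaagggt

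X and autosomes differed in direction. On the autosomes 18.4% of 10829 regions were male-only and 12.1% were female-only, so that male-only regions were 1.52 times as many. On X the order turned: 6.66% of 2417 regions were male-only and 31.6% female-only, and female-only regions were 4.75 times as many. X held 7.46% of male-only regions (6.43 to 8.65), 36.8% of female-only regions (34.8 to 38.9) and 16.6% of shared regions. These shares chose the members and are given as a description. The split follows the lists themselves, because X held 15% of the 11295 male fru+ peaks and 20.3% of the 11217 female fru+ peaks, beside 14.9% and 20.1% in the male and female fru- lists. When equal numbers of peaks were taken from both lists within X and within the autosomes, a choice that by construction evens out the directions, 279 male-only and 309 female-only X regions remained beside 1576 and 1534 on the autosomes. Read depth moved with the autosomal excess: the genome background solved from the fold and p-value of each peak was 18.0 fragments in the male and 14.3 in the female fru+ list, and its part in the result was not tested.

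The fru- lists, built in the same way from the unlabelled cells, gave a comparison that the choice of members did not use. On X, 4.85% of 2435 regions were male-only (4.06 to 5.77) and 32.5% female-only (30.7 to 34.4). The fru+ pair had 6.66% (5.73 to 7.73) and 31.6% (29.8 to 33.5), and the intervals met in both directions. On the autosomes 10.8% of 10262 regions were male-only (10.2 to 11.4) and 7.79% female-only (7.28 to 8.32). Both autosomal shares lay below the 18.4% and 12.1% of the fru+ pair, with intervals that did not meet. The solved background was 18.9 fragments in the male and 16.4 in the female fru- list, against 18.0 and 14.3 in the fru+ lists. The part of depth in this gap was not tested. The autosomal arms of the fru+ pair ranged from 14.0% male-only on chromosome 4 to 20.6% on 2L, and from 3.68% female-only on chromosome 4 to 14.0% on 2L. Every arm other than X had more male-only than female-only regions.

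Members were narrow and weak beside shared regions, and part of this is built into their choice. A shared region joins the peaks of both lists, and a weak peak is more easily missed in 1 list. The median width of members was 290 bp and 278 bp for male-only and female-only autosomal regions and 316 bp and 317.5 bp on X. Shared autosomal and X regions had 702 bp and 768 bp. The median fold over background, as the peak caller gave it, was 2.73 and 2.75 for male-only and female-only autosomal members and 2.80 and 2.95 on X. Shared autosomal and X regions had 4.95 and 5.63 in the female fru+ list and 5.06 and 4.61 in the male fru+ list. Strength was read as the percentile rank of a region's highest −log10 q within its own list, so that 100 is the strongest peak of a list. Among autosomal regions of strength 0 to 25, 45.8% were male-only and 32.7% female-only, and among those of strength 75 to 100 only 1 of 2633 was male-only and none was female-only. On X, 72.1% of the 637 regions in the weakest range were female-only and 13.8% male-only. Above strength 50 there remained 50 male-only and 13 female-only autosomal regions and 24 male-only and 36 female-only regions on X.

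**Figure D1:**
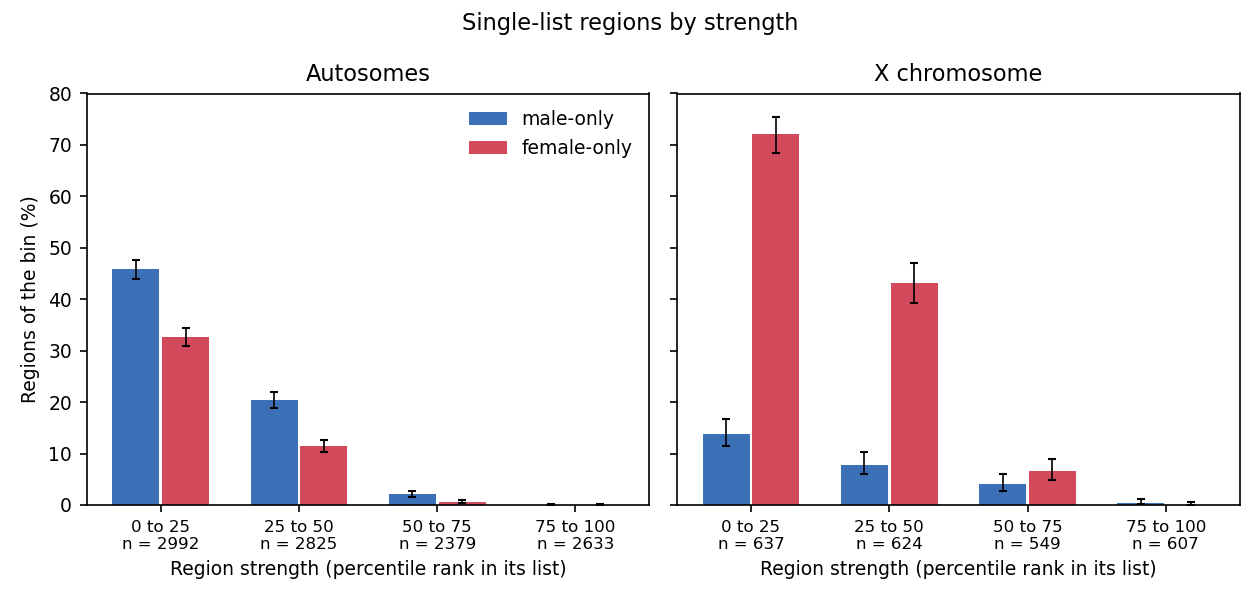
Percentage of regions (y axis) that were male-only (blue) or female-only (red) in 4 ranges of region strength (x axis, percentile rank of the highest −log10 q in its list), for autosomes (left) and X (right); error bars are 95% Wilson intervals and n is the number of regions. Shares of single-list regions fell with strength in both panels, and on X the female-only share went from 72.1% in the weakest range to 0 of 607 in the strongest.

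Regions at the border of the choice were close calls. The nearest male-only and female-only neighbours, both at CG40045 on 3L, lay 8 bp apart with −log10 q of 5.86 and 5.49, while a shared region at Prp16 on X was held together by an overlap of 1 bp, and 9 shared regions had an overlap of 50 bp or less. The weakest members had −log10 q of 3.22 (smog, male-only) and 3.16 (Pez and sm, female-only). A gap of over 5000 bp to the nearest peak of the other list was found for 35.5% of male-only and 29.1% of female-only autosomal regions, and for 20.5% of male-only and 58.0% of female-only X regions. Near-identical copies of the summit window elsewhere in the genome were found for 4, 1, 6 and 2 members in the order male-only and female-only on autosomes, then on X, and a Y copy for 3 male-only and 1 female-only autosomal members.

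Presence of the members in the fru- lists separated the classes. Of the male-only autosomal members, 59.0% (56.9 to 61.2) had a peak in neither fru- list, 13.5% in the male fru- list only, 6.96% in the female fru- list only and 20.5% in both. Female-only autosomal members were at 32.1% (29.6 to 34.7), 11.5%, 10.9% and 45.5% for the same states. Shared autosomal regions had a peak in both fru- lists in 92.7% of cases. In these lists, male-only autosomal members were thus more often without any fru- peak than female-only ones. The intervals do not meet, but they cover counting error only and not differences between libraries. Above strength 50 the order was the same but the intervals met. There 34.0% of 50 male-only regions (22.4 to 47.8) and 15.4% of 13 female-only regions (4.33 to 42.2) were in neither fru- list. Among autosomal members found in a single fru- list, the male list held 66.0% of the male-only ones (61.3 to 70.4, 270 of 409) and 51.4% of the female-only ones (45.7 to 57.0, 151 of 294). Shared autosomal regions found in a single fru- list were in the male one in 64.5% of cases (59.2 to 69.5, 213 of 330), so male-only regions were at the share of shared regions and female-only regions were below it.

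On X, members were more often in the fru- list of their own sex. Male-only X regions had a peak in the male fru- list only in 49.1% of cases (41.5 to 56.7), in the female fru- list only in 10.6% and in neither in 34.2%. Female-only X regions had one in the female fru- list only in 49.3% (45.8 to 52.9), in the male fru- list only in 0.916% and in neither in 30.1%. Of X members found in a single fru- list, the male list held 79 of 96 male-only regions (82.3%) and 7 of 384 female-only regions (1.82%, 0.886 to 3.71). Over shared X regions it held 9 of 119 (7.56%, 4.03 to 13.8), so the female list had most single peaks there too. Above strength 50, 21 of 24 male-only X regions were in the male fru- list and 0 in the female one. All 36 female-only X regions above strength 50 were in the female fru- list, but 25 of them (69.4%) were also in the male fru- list, against 20.5% of all female-only X regions. The gap also narrowed with equal numbers of peaks, where male-only X regions were in the male fru- list in 49.8% and in the female one in 41.6% of cases, against 55.3% and 16.8% in the lists as deposited. Female-only X regions were then in the male fru- list in 36.2%, and in 43.0% when only peaks of −log10 q of at least 10 were kept.

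**Figure D2:**
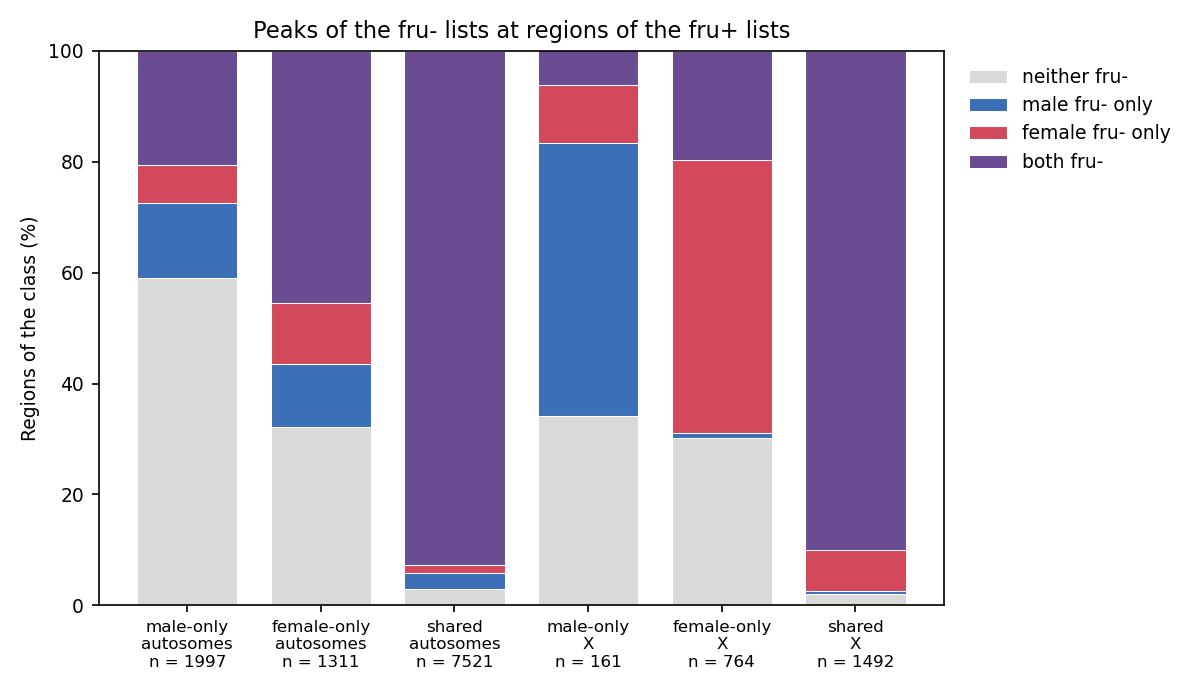
Share of regions (y axis, percent of the class) with a peak in neither fru- list (grey), the male fru- list only (blue), the female fru- list only (red) or both (purple), for the 6 classes of fru+ regions on the x axis with their numbers. Shared regions were in both fru- lists in 92.7% of autosomal cases, male-only autosomal regions in neither in 59.0%, and X members mostly in the list of their own sex or in none.

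Fold values at female-only and shared X regions were lower in males. Over the 150 female-only X members that had peaks in both fru- lists, the median fold was 2.77 in the male and 3.61 in the female fru- list, a median log2 ratio of male over female of -0.38, and the male fold was higher in 19 of 150 (12.7%, 8.26 to 18.9). Shared X regions in both fru- lists had a median log2 ratio of -0.22 and a higher male fold in 15.7%. The 10 male-only X members in both fru- lists had a median of 0.13, with the male fold higher in 6. Over 409 male-only and 596 female-only autosomal members in both fru- lists the medians were 0.03 and -0.04. Within the fru+ lists the median log2 ratio of shared regions was -0.23 on X and -0.02 on the autosomes. Males have a single X, so copy number and accessibility per copy cannot be told apart in these lists.

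Gene position set the male-only X regions apart. Of the 161, 56 (34.8%, 27.9 to 42.4) lay in a 3′ UTR, against 3.01% of female-only X regions (2.01 to 4.48), 2.41% of shared X regions and 4.76% of all X regions. Among the 79 male-only X regions that were also in the male fru- list alone, 44 lay in a 3′ UTR (55.7%, 44.7 to 66.1), beside 11 of 55 in neither fru- list and 1 of 17 in the female fru- list alone. With equal numbers of peaks taken from the lists, a choice added after the data were seen, 23.3% of 279 male-only and 3.88% of 309 female-only X regions were in a 3′ UTR. On the autosomes 4.36% of male-only (3.55 to 5.34) and 1.75% of female-only regions (1.17 to 2.62) were in a 3′ UTR.

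Away from 3′ UTRs, members lay in introns and between genes. A promoter, read as within 50 bp of a start site, held 11.5% of male-only and 7.63% of female-only autosomal members and 8.07% and 9.03% of those on X, against 55.6% and 56.0% of shared autosomal and X regions. Introns held 42.5% and 49.0% of male-only and female-only autosomal members, 26.1% of male-only X members and 57.7% of female-only X members. Intergenic members made up 33.2% and 34.4% on the autosomes and 16.8% and 25.7% on X in the same order.

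**Figure D3:**
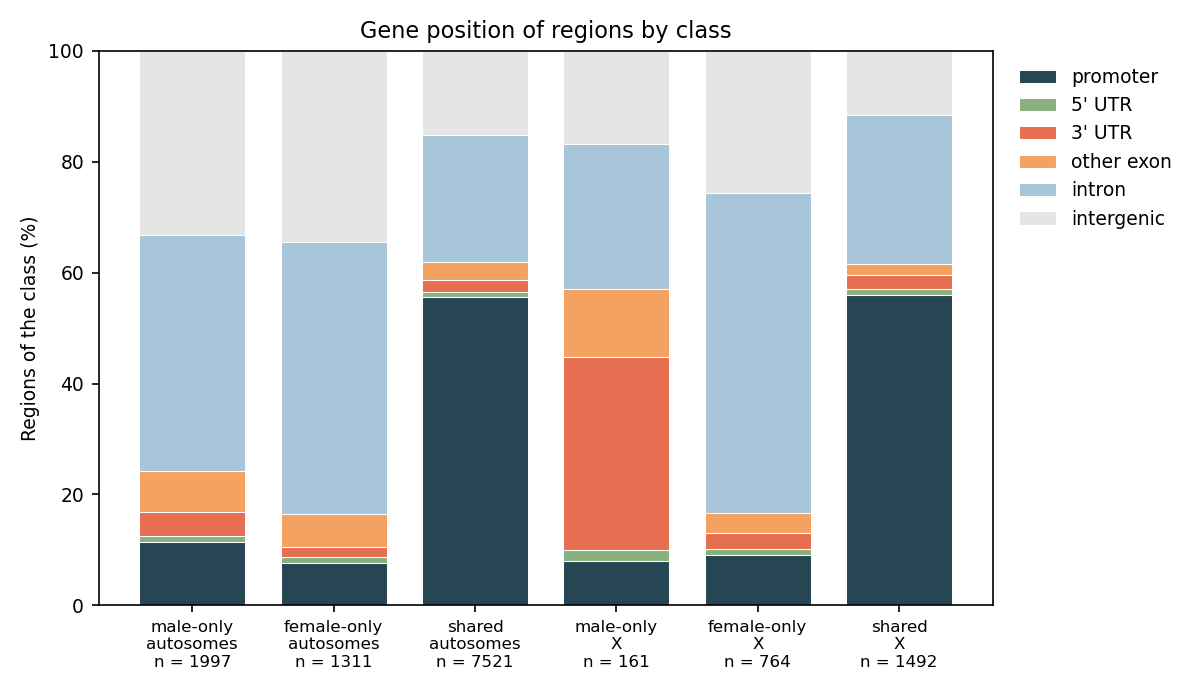
Gene position of regions (y axis, percent of the class; colours give promoter, 5′ UTR, 3′ UTR, other exon, intron and intergenic) for male-only, female-only and shared regions of autosomes and X (x axis, with numbers). Shared classes were 55.6% and 56.0% promoter, and members other than male-only X regions were mostly intron and intergenic. Of male-only X regions 34.8% were 3′ UTR, 26.1% intron and 16.8% intergenic.

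GA repeats were more frequent in male-only than in female-only X regions. A match to GAGAGAGA on either strand within 200 bp windows at the summit was found in 24 of 161 male-only X regions (14.9%, 10.2 to 21.2), in 4.19% of female-only X regions (2.98 to 5.85), in 9.32% of shared X regions and in 8.07% of all X windows. The share was 22.8% for male-only X regions in the male fru- list alone and 37.5% (9 of 24) above strength 50, as in the Atg5 and CG2186 sequences printed above. On the autosomes it was 2.90% in male-only and 2.14% in female-only windows, against 4.99% of all autosomal windows. With equal numbers of peaks the male-only X share was 10.0% (7.04 to 14.1) and its interval held the 8.07% of all X windows. Of the other letters searched, the homeodomain core TAATTA was in 7.76% of male-only (6.67 to 9.02) and 4.81% of female-only autosomal windows (3.77 to 6.10), against 6.52% of all autosomal windows, and the median GC content of these windows was 47.0% and 49.5%. The DREF site TATCGATA was in 0.951% and 0.763% against 3.26% of all autosomal windows. Promoters made up 41.6% of all autosomal regions, but 11.5% of male-only and 7.63% of female-only ones. Motif shares outside promoters were not compared, so gene position and motif content cannot be told apart in these backgrounds. The E boxes CAGCTG and CACGTG and the AP-1 site TGANTCA, where N is any base, had intervals that overlapped between male-only and female-only autosomal members. A match describes letters and not binding.

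The strongest male-only X regions were of several kinds. The highest −log10 q, 283 with a fold of 5.05, was at 18SrRNA-Psi:CR45861, a ribosomal RNA pseudogene whose window has 5 copies on unplaced scaffolds, followed by a region at mir-10404-4 with a fold of 12.7 and 13 copies, and neither was in any other list. The region nearest to lncRNA:CR40469 had 3 copies and was in both male lists with folds of 7.33 (fru+) and 7.85 (fru-). Reads from repeated sequence cannot be placed to a single copy, so these 3 regions are uncertain. The next regions had no copy, and their peaks were in the male lists alone. CG2186 had folds of 7.28 (male fru+) and 7.45 (male fru-), CG3638 of 6.91 and 5.28, and CG3568 of 6.58 and 7.11, all in 3′ UTRs.

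Other strong male-only X regions lay in the bodies of well-known genes. An exonic region of norpA, the phospholipase C of phototransduction, had folds of 6.49 (male fru+) and 6.79 (male fru-). An intronic region of Atg5, an autophagy gene, had 6.38 and 8.55, and a 3′ UTR region of pod1, an actin and microtubule binding protein, had 6.22 and 7.70. A 3′ UTR region of X11Lbeta, an adaptor related to the mammalian X11 proteins, had 5.54 and 6.29. None of these had a peak in a female list.

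The roX genes, whose RNAs belong to the MSL complex of males, both differed between lists. A 484 bp region over the roX2 promoter was male-only with folds of 4.77 (male fru+) and 7.46 (male fru-) and no peak in either female list, 823 bp from the nearest female fru+ peak. A single male fru- peak spanned this region and the adjoining one, so its fold is that of the whole peak and not of the roX2 promoter alone. The adjoining region over the 3′ part of roX2 and the nod promoter was shared, with folds of 8.27 and 9.37 in male and female fru+ cells. The roX1 region was shared as well: its peaks covered 1864 bp in the male fru+ list and 423 bp in the female fru+ list, with folds of 7.48 and 6.29, and 1856 bp and 429 bp in the male and female fru- lists. The other listed dosage compensation genes held a single member, male-only, in an exon of Clamp, whose product binds GA repeats.

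The 6 female-only X regions of highest −log10 q lay at genes of varied kinds. The region of highest −log10 q lay 7480 bp from the start of Lim1, a LIM homeodomain factor, with a fold of 4.11 in female fru+ cells and 2.77 and 4.25 in male and female fru- cells. The promoter of p24-1, a cargo protein of the early secretory pathway, had folds of 8.78 (female fru+), 4.98 (male fru-) and 9.08 (female fru-), and no male fru+ peak. The CG11444 promoter had 7.47 and 8.05 in the female lists and no peak in the male lists. An exonic region of dnc, the cAMP phosphodiesterase of olfactory memory, had 6.75 and 6.44 in the female lists alone. The region near CG32797 had 7.28 in female fru+ cells and 3.92 and 7.93 in the male and female fru- lists, and the promoter of lncRNA:CR43492 had 6.95 and 7.01 in the female lists alone. Of the 6, 3 were thus in the female lists only and 3 had a weaker male fru- peak.

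Of the 6 male-only autosomal members of highest −log10 q, 4 had a peak in both fru- lists. The male-only region in nuf, an adaptor of Rab11 trafficking, had folds of 8.23 (male fru+), 7.80 (male fru-) and 8.28 (female fru-) and lacked only a female fru+ peak. The region 6417 bp from the start of CadN, the N-cadherin of axon targeting, was alike with 7.17, 7.35 and 7.36. The promoters of PIG-B, of GPI anchor synthesis, and of the ribosomal gene RpL9 had 6.08 and 5.96 in male fru+ cells and peaks in both fru- lists. The region at tRNA:Met-CAT-1-2 had 6.96 in male fru+ cells and no other peak. The strongest of all, near CG9380, had 9.91 and 11.2 in the male lists and 3 copies on X, so its placement is uncertain.

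All 6 female-only autosomal members of highest −log10 q had a peak in a fru- list. The region 66 bp from the start of Sox21a, a Sox family factor, had folds of 6.43 (female fru+), 6.26 (male fru-) and 6.44 (female fru-). Intronic regions of ome, a dipeptidyl peptidase, and of Prosap, a postsynaptic scaffold, had 5.57 and 5.17 in female fru+ cells and peaks in both fru- lists, as did the region near lncRNA:CR42736 with 3.90. The promoter of RpL23A had 4.44 and a male fru- peak of 4.21, and the intronic region of the kinase gene Sik3 had 3.64 and a female fru- peak of 3.25. Their strengths ran from 53.3 to 61.2.

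Members seen in no other list were weaker. The highest of the male-only autosomal ones after tRNA:Met-CAT-1-2 were the regions at asRNA:CR46453 and Edg84A with folds of 5.43 each, at lncRNA:CR43846 with 4.39 and in an intron of dysc, a PDZ protein of circadian output, with 5.27. The highest female-only autosomal ones were the promoter of CG9630 with 5.31, a region near CG2113 with 5.02, one near lncRNA:CR43404 with 4.59, the promoter of CG4968 with 4.16 and an intron of the serotonin receptor gene 5-HT1A with 3.59. Male-only regions shared with the male fru- list alone included Fam92 (5.43 and 5.79), HGTX, an Nkx6 homeobox gene (4.96 and 5.79), and the cell death gene hid (5.06 and 2.11). Female-only regions shared with the female fru- list alone included the promoter of CycA, a mitotic cyclin (4.92 and 5.12), and an intron of the acetylcholine receptor gene nAChRalpha6 (4.33 and 3.22). The regions of this paragraph were chosen after their values were seen.

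Some members overlapped a fru- peak with a far higher fold than their own fru+ peak. The region in an intron of Nadk1a had a fold of 2.69 in male fru+ cells and overlapped a male fru- peak with 14.5. A region near dpr4 had 2.45 in female fru+ cells and, in the fru- lists, 2.11 for males and 7.25 for females. Regions in Nrx-IV, a septate junction neurexin, and at lncRNA:CR43256 had 2.28 and 2.49 in female fru+ cells and 8.13 (male fru-) and 8.85 (female fru-). On X the region in Chchd2 had 2.43 in female fru+ and 10.2 in female fru- cells. The fru- peak covered 96 of the 192 bp of the Nadk1a region and 33 of the 417 bp of the lncRNA:CR43256 region. It covered 183 of 188 bp in Nrx-IV, 219 of 289 bp in Chchd2 and all 238 bp near dpr4 (female fru-). In each case the fold is that of the whole fru- peak, whose summit may lie outside the region. A peak of the other fru+ list lay within 73 bp (Nrx-IV) to 345 bp (Nadk1a) of each region, so higher accessibility of the members themselves was not shown.

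At the fru gene itself, 8 male-only, 4 female-only and 10 shared regions were assigned to a gene of 131314 bp, and 9 of the shared ones overlapped it. All 8 male-only regions were absent from both fru- lists. The strongest was an intronic region of 661 bp at chr3R:18520075-18520735 with a fold of 2.91, and the others had folds of 2.10 to 2.90. Of the 4 female-only regions, with folds of 2.23 to 2.78, 3 had a peak in a fru- list. Shared regions included the upstream promoter, with folds of 4.82 (male fru+), 5.0 (female fru+) in labelled cells and 5.36 and 5.35 in the unlabelled cells of males and females, and a set with peaks in both fru+ lists and neither fru- list, such as a region of 1497 bp with 4.42 and 4.67. The sort used this locus, since its promoter drove the reporter.

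**Figure D4:**
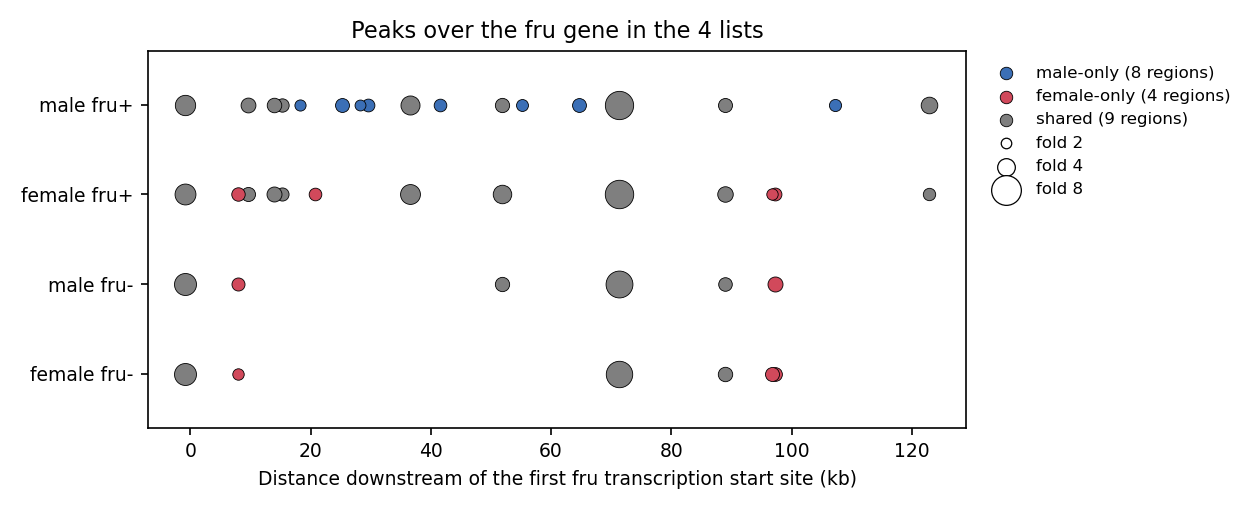
Peaks over the fru gene in the 4 lists (rows) by distance downstream of the first start site (x axis, kb); circle area grows with the fold, and colour gives male-only (blue), female-only (red) and shared (grey) regions that overlap the gene. The 8 male-only circles appear in the male fru+ row alone, and few circles in the middle of the gene appear in the fru- rows.

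Other listed genes of the sex hierarchy, leaving fru aside, held 3 members in regions outside promoters. dsx, the transcription factor that sets somatic sex, had 2 shared regions and a male-only intronic one with a fold of 3.48, which overlapped a female fru- peak of 2.36, and its promoter was at 12.5 and 11.3 in male and female fru+ cells. Lgr3, a relaxin receptor-like gene, had a female-only intronic region with a fold of 2.49 and no fru- peak. dsf, a nuclear receptor of sex-specific neural development, had a male-only region. tei, an immunoglobulin domain adhesion gene outside that list, had 6 male-only and 8 female-only regions beside 12 shared ones, and the male-only ones were in neither fru- list in 2 cases. Over the sex hierarchy list, 9 of 24 autosomal regions outside promoters were male-only (37.5%, 21.2 to 57.3) and 5 female-only (20.8%, 9.24 to 40.5), 7 and 4 of them in fru. Both intervals held the shares over all such regions, 28.0% and 19.2%.

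Members were spread over many genes. Of 6757 genes with a region, 1478 had a male-only and 1216 a female-only region, and 448 had both (30.3% and 36.8% of each). The autosomal gene with most male-only regions was bru3, a Bruno-family RNA-binding protein, with 14 of its 50 regions (and 12 female-only). Then came luna, a Krüppel-like factor, with 11 of 23 (and 5) and mtgo with 10 of 21 (and 3). Sema1a, a transmembrane semaphorin, had 9 of 24 (and 5), dpr11, a partner of DIP adhesion proteins, 9 of 20 (and 6), and fru 8 of 22 (and 4). The autosomal genes with most female-only regions were bru3 with 12 of 50 (and 14 male-only), then pum, a translational repressor, with 9 of 33 (and 5). dpr6 had 9 of 24 (and 6), olf413 9 of 26 (and 6), lilli, an AF4-family elongation factor, 9 of 14 (and 1), and tei 8 of 26 (and 6). These are long genes, from 64162 bp in dpr11 to 281494 bp in bru3, and the count was not corrected for length. Over all autosomal regions 18.4% were male-only and 12.1% female-only, and outside promoters 28.0% and 19.2%. The gene totals include promoters. Of the male-only regions of these genes, 8 of 8 in fru, 8 of 9 in dpr11, 7 of 11 in luna, 6 of 10 in mtgo, 7 of 14 in bru3 and 4 of 9 in Sema1a were in neither fru- list, beside 59.0% of all male-only autosomal regions, while 8 of the 12 female-only regions of bru3 were in both.

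The X genes with most female-only regions were of mixed or unknown function. kirre, an immunoglobulin adhesion protein, had 19 of its 36 regions beside 1 male-only region. Ten-a, a teneurin of synaptic partner matching, had 17 of 36 beside 1. shakB, an innexin of gap junctions, had 16 of 27 beside 0, and CG15465 15 of 25 beside 1. CG42340 had 12 of 19 beside 1 and lncRNA:CR44997 12 of 20 beside 0. Of the 19 in kirre, 11 had a peak in the female fru- list alone and none in the male fru- list alone, and of the 17 in Ten-a, 10 and none, beside 49.3% and 0.916% of all female-only X regions. Listed genes with more female-only than male-only regions included dpr8 (11 female-only and 1 male-only of 21), dnc (10 and 2 of 26) and nAChRalpha3 (9 and 0 of 13). Others were the dopamine receptor gene Dop2R (8 and 1 of 12), the potassium channel gene Sh (8 and 2 of 27), Ca-alpha1T (7 and 0 of 13) and mamo (6 and 0 of 15). Over all X regions 31.6% were female-only and 6.66% male-only, so an excess of female-only regions was general on X, and Sh was near both shares. The X genes with most male-only regions were X11Lbeta with 4 of 16 beside 8 female-only ones and norpA with 3 of 11 beside 3. Then came CG3638 with 2 of 6 beside 1, CG43901 and nej with 2 of 3 each beside 0, and ct with 2 of 10 beside 2.

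Gene lists were read on autosomal regions outside promoters, where the background was 28.0% male-only and 19.2% female-only. Immunoglobulin and cadherin adhesion genes were at 33.9% male-only (29.2 to 38.8) and 27.9% female-only (23.6 to 32.7) of 369 regions. Both intervals lay above the background, but with each region given to the gene of its nearest start site they held it, at 32.5% (24.9 to 41.2) and 24.4% (17.7 to 32.7) of 123. With promoters included, side-III (7 male-only and 1 female-only of 20 regions), side-VI (8 and 2 of 18) and klg (5 and 0 of 9) had more male-only than female-only regions. dpr11 (9 and 6 of 20) and CadN2 (6 and 4 of 14) were near the autosomal ratio of 1.52. dpr6 (6 and 9 of 24), fipi (1 and 5 of 10) and Dscam2 (1 and 4 of 8) had more female-only ones. Axon guidance genes were at 33.6% (26.1 to 41.9) and 18.7% of 134, with intervals that held the background in both directions. RNA-binding genes were at 24% and 23.6% of 246, with pum at 5 and 9, msi at 1 and 5 and sm at 7 and 4.

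Transcription factor lists were lower or uneven. BTB zinc finger genes were at 29.1% male-only and 11.4% female-only (6.11 to 20.3) of 79 regions. fru gave 7 of the 23 male-only ones and 4 of the 9 female-only ones, and bab1 had 6 and 1 and lola 3 and 0. Homeodomain and POU genes were at 13.2% (7.12 to 23.3) and 7.35% (3.18 to 16.1) of 68, nuclear receptors at 8.0% and 10.0% of 50 and ecdysone response genes at 9.78% (5.23 to 17.6) and 10.9% of 92. The male-only intervals of these 3 lists lay below the background of 28.0%. When each region went to the gene of its nearest start site instead, nuclear receptors were at 0% and 3.85% of 26.

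Signalling lists held smaller numbers. Memory signalling genes had 11 of 32 regions male-only (34.4%, 20.4 to 51.7) and 1 female-only (3.12%, 0.554 to 15.7). Of the 11, 5 were in klg, which the adhesion list holds too, and the protein kinase A genes Pka-C1, Pka-C3, Pka-R1 and Pka-R2 had 1 each. Monoamine receptor genes were at 26.5% in both directions of 68, with Dop1R1 at 3 male-only and 0 female-only regions and 5-HT1A and 5-HT2B at 0 and 4 each. Acetylcholine receptor genes were at 25.6% and 17.9% of 39. tRNA genes had 8 of 31 male-only and 2 female-only regions. Activity-regulated genes had no member among 13 regions.

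**Figure D5:**
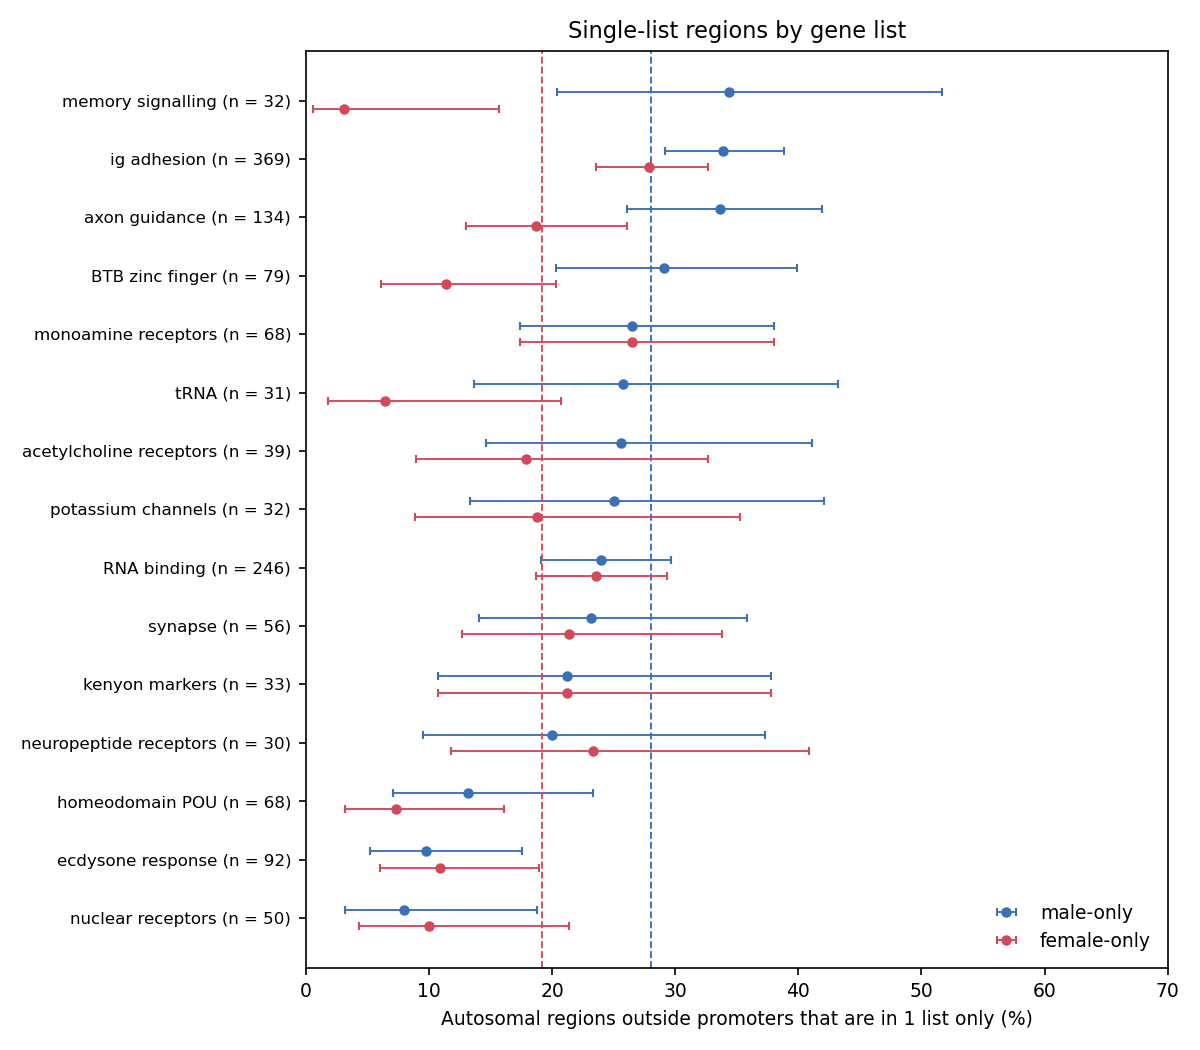
Percentage of autosomal regions outside promoters that were male-only (blue) or female-only (red) (x axis) for gene lists with at least 25 regions (y axis, n regions), with 95% Wilson intervals; dashed lines mark the shares over all genes, 28.0% and 19.2%. Adhesion genes lie to the right of both lines, although their intervals held the lines when regions went to the nearest start site, and homeodomain, ecdysone and nuclear receptor genes lie to the left.

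On X, 9.87% of the 1500 regions outside promoters were male-only and 46.3% female-only. Adhesion genes were at 2.94% and 60.3% (48.4 to 71.1) of 68 such regions, and at 0% and 63.2% (41.0 to 80.9) of 19 with the nearest start site, an interval that held the background. Axon guidance genes had 1 male-only region among 51 and were at 52.9% female-only (39.5 to 65.9), with the female-only background inside the interval. Homeodomain genes were at 7.69% and 19.2% (8.51 to 37.9) of 26.

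Peaks at marker genes of cell types were read as presence and not as expression. All 5 neuronal markers had a peak in each of the 4 lists, and all 6 Kenyon cell markers did so too. Presence at these markers therefore did not tell the pools apart and could not check the labelled cell type. Of 7 glial markers, 2, 1, 2 and 2 had a peak in the fru+ lists of males and females and then in the fru- lists of males and females, and repo, the defining glial factor, had none in any list. Among autosomal regions outside promoters in a wider glial list, 4 of 6 were male-only, in Eaat1, gcm2, Tret1-1 and loco, and none was female-only, beside 28.0% and 19.2% over all such regions. On X the same list had 2 regions, of which 1 was female-only and none male-only. Their part in the male-only counts was not tested.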

How the data were processed

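ATAC-seq libraries of sorted male and female fru+ and fru- neurons were read through 1 pooled peak list per group. Per the labels and methods, the authors trimmed reads with cutadapt, aligned them with Bowtie2 to dm6 (fragments up to 1000 bp), removed duplicates with Picard, kept mapping quality 30 and called peaks with MACS2 at an FDR of 0.001. SAMtools and deepTools also stand in the submitters' processing notes, and versions are not given in the sources used here. Each deposited list gives a score, the fold (a ratio over background), −log10 p and −log10 q of each peak, and the offset of its summit. The score column was not used in any result. Library read totals were not given, so the background in fragments was solved from fold and −log10 p.

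Peaks on the main chromosomes were merged into regions at 1 bp of overlap with Python 3.11.15. Regions were placed in genes by Ensembl release 115 (BDGP6.54), promoter first (50 bp), and a region outside genes went to its nearest start site. Sequence was read from RefSeq release 6 with pysam 0.24.0, and copies of 200 bp summit windows were sought with BLAST+ 2.17.0 at 95% identity over 90% of the window. In these windows 6 motifs were searched on both strands. Merging, intervals and motif search were tested on simulated data.

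Named were the 6 regions of highest −log10 q in each class, the 6 genes with most members, listed genes with 3 or more members, a few fixed genes, and the 4 members of each class with the highest −log10 q in a fru- list. Others named were chosen after their values were seen. The members and gene lists were chosen with earlier results of these data known. Alternatives covered stricter q, equal list lengths, overlap, distance, strength and gene assignment.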

Additional observations from a re-analysis of the deposited data

Results flagged for a closer look

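Some members had the opposite sex in the fru- lists. Of the male-only autosomal regions, 139 had a peak in the female fru- list and none in the male one, and of the female-only autosomal regions 151 had a peak in the male fru- list alone. On X these numbers were 17 of 161 male-only and 7 of 764 female-only regions. With 1 list per group the difference between fru+ and fru- cells was not tested.

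The male fru+ list held 6 peaks on the Y chromosome, which entered no comparison, and the female fru+ list held 1. The male and female fru- lists held 7 and 1.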

How the results depend on the processing

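Male-only regions were more numerous on the autosomes and female-only regions on X under all 7 alternatives. The ratios were 1.03 to 3.85 on the autosomes and 1.11 to 5.18 on X. Both lowest ratios, 1.03 and 1.11, came with equal numbers of peaks, which evens out the directions by construction. Of 70 main values under alternatives, 46 stayed within 1 interval or 1.5 times and 24 moved, and of 147 others 45 moved. At a −log10 q of at least 5, the share of male-only autosomal regions in the male fru- list was 36.5% and of female-only ones in the female fru- list 60.3%. At 10 or more these were 56.8% and 80%, female-only regions numbered 736 on autosomes and 472 on X, X held 39.1% of female-only regions, and 89.0% of female-only X regions were in the female fru- list. With equal numbers of peaks there were 279 male-only and 309 female-only X regions, X held 15% and 16.8% of the 2 directions, 36.8% of male-only autosomal regions were in the male fru- list, and 89.6% of female-only X regions in the female one. Above strength 50 the counts were 50 and 13 on autosomes and 24 and 36 on X, X held 32.4% and 73.5%, and shares in the fru- list of the same sex were 60%, 76.9%, 87.5% and 100%. The cause was not tested, though stricter choices keep fewer members by construction. The fru- lists were read as deposited throughout.

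The 3′ UTR and GA repeat shares of X members were tried under the same alternatives after the data were seen, and above strength 50 they were 66.7% and 37.5% of male-only regions. Values by replicate could not be had from pooled lists. No paired analysis was possible because each group has 1 pooled list and no value comes from a test. Weak peaks near the calling threshold can be missed in 1 list, and the depth of each library is unknown.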
